A study of Mus musculus with 12 samples.

Results

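The genes described here are the receptors for serotonin, dopamine, noradrenaline and acetylcholine. They were taken by symbol alone, as every gene whose symbol starts with Htr, Drd, Adra, Adrb, Chrm, Chrna or Chrnb followed by a digit, which gave 47 of the 31053 genes in the matrix: 14 Htr, 5 Drd, 6 Adra, 3 Adrb, 5 Chrm and 14 Chrna or Chrnb genes. Of these, 46 encode receptors or receptor subunits. The other, Chrna1os, is an antisense RNA gene beside Chrna1 and no receptor. Histamine receptors fall outside the rule. The genes were measured by droplet single-nucleus RNA sequencing in the forelimb region of the right primary motor cortex of 6 mice aged 13 weeks. The trained mice (2, 4 and 6) were head-fixed and pressed a lever with the left paw to earn some of their water on days 11 to 13. The control mice (1, 3 and 5) received all of it in the home cage. Every mouse was limited to 1 mL of water per day from the start, so the control mice shared the water restriction but not the task or its reward. The labels name no strain or sex.

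Serotonin, dopamine and noradrenaline reach the motor cortex along axons whose cell bodies lie in the brainstem and midbrain, and most acetylcholine comes from the basal forebrain. Each transmitter acts through several receptors that couple to different signals. The Htr2 and Adra1 receptors and the muscarinic receptors Chrm1, Chrm3 and Chrm5 activate phospholipase C through Gq. The receptors Htr4, Htr6, Htr7, Drd1, Drd5 and the Adrb family raise cyclic AMP through Gs, and Htr1, Drd2, Drd3, Drd4, Adra2, Chrm2 and Chrm4 lower it through Gi. Htr3 and the nicotinic Chrna and Chrnb genes encode subunits of ion channels. In cortex these receptors set the excitability of neurons and are linked to plasticity in motor learning. The genes of the source neurons were near 0 in these nuclei. Over all nuclei Th, Slc6a3, Slc6a2 and Slc6a4, which mark catecholamine and serotonin neurons, lay between 0 and 0.244 CPM in the trained mice and between 0.0131 and 0.226 CPM in the control mice. Chat, the enzyme that makes acetylcholine and is known from some Vip interneurons, was at 15.2 to 35.6 CPM in the trained mice and 24.7 to 28.3 CPM in the control mice in Vip nuclei.

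The deposited matrix held 46798359 to 62741326 UMIs (unique molecular identifiers, each counting a captured RNA molecule) per trained mouse and 56099142 to 91495029 per control mouse. After filtering, 5265 to 8367 nuclei were kept per trained mouse and 7353 to 11817 per control mouse, with median UMIs per nucleus of 5749 to 7205 in the trained mice and 5215 to 6874 in the control mice. Nuclei were clustered without the receptor genes and named from marker genes, so each class name stands for "-like". IT, ET, NP and CT are intratelencephalic, extratelencephalic, near-projecting and corticothalamic neurons of the layer given (L), and Lamp5, Sncg, Vip, Sst and Pvalb are classes of inhibitory interneuron. Of 22 classes, 20 had at least 20 nuclei in every mouse and were compared. L6b and differentiating oligodendrocytes did not. Glutamatergic cluster 7, with 1385 nuclei led by Cux2, Rmst, Rspo1 and Rorb, took no name from the markers and is kept by its number. An unnamed group of 408 nuclei came almost wholly from trained mouse 6 (399 nuclei, median 1380 UMIs). Clusters of 195, 109, 59, 42 and 22 GABAergic and 92 glutamatergic nuclei also took no name. Sst was among the leading genes of the cluster of 195, and the Sst list scored highest in that of 59. All unnamed nuclei entered only the sums over all nuclei, not the class or family sums. In an L6 CT cluster 513 of 1041 nuclei came from control mouse 3. Slc17a7, the vesicular glutamate transporter of excitatory neurons, was counted in every class, at 140.1 to 360.1 CPM in glutamatergic classes, 17.3 to 30.7 CPM in interneuron classes and 56.1 to 115.0 CPM in glial and vascular classes. A low receptor level in glial or vascular nuclei is therefore given as a value and not read as expression by those cells. Among the barcodes, 284 sequences occurred in more than 1 mouse.

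Levels are CPM, the counts summed per mouse and class and scaled by TMM to a common library size, with errors as SD over 6 mice, and the order of classes is a description with no test. Of the 47 genes, 23 reached a mean of at least 10 CPM in their highest class and 24 stayed below it in every class. The 23 were highest in 13 different classes: 4 each in L5/6 NP and Vip, 3 in Sncg, 2 each in Lamp5 and Glutamatergic cluster 7, and 1 each in 8 others. In 7 of the 23, among them Chrm2, Chrna7, Adra1a, Adra1b, Adrb1 and Htr1b, the lowest of the 6 mice in the highest class lay above the highest mouse of the next class. In the remaining 16 the ranges of the first and next class overlapped.

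**Figure D1:**
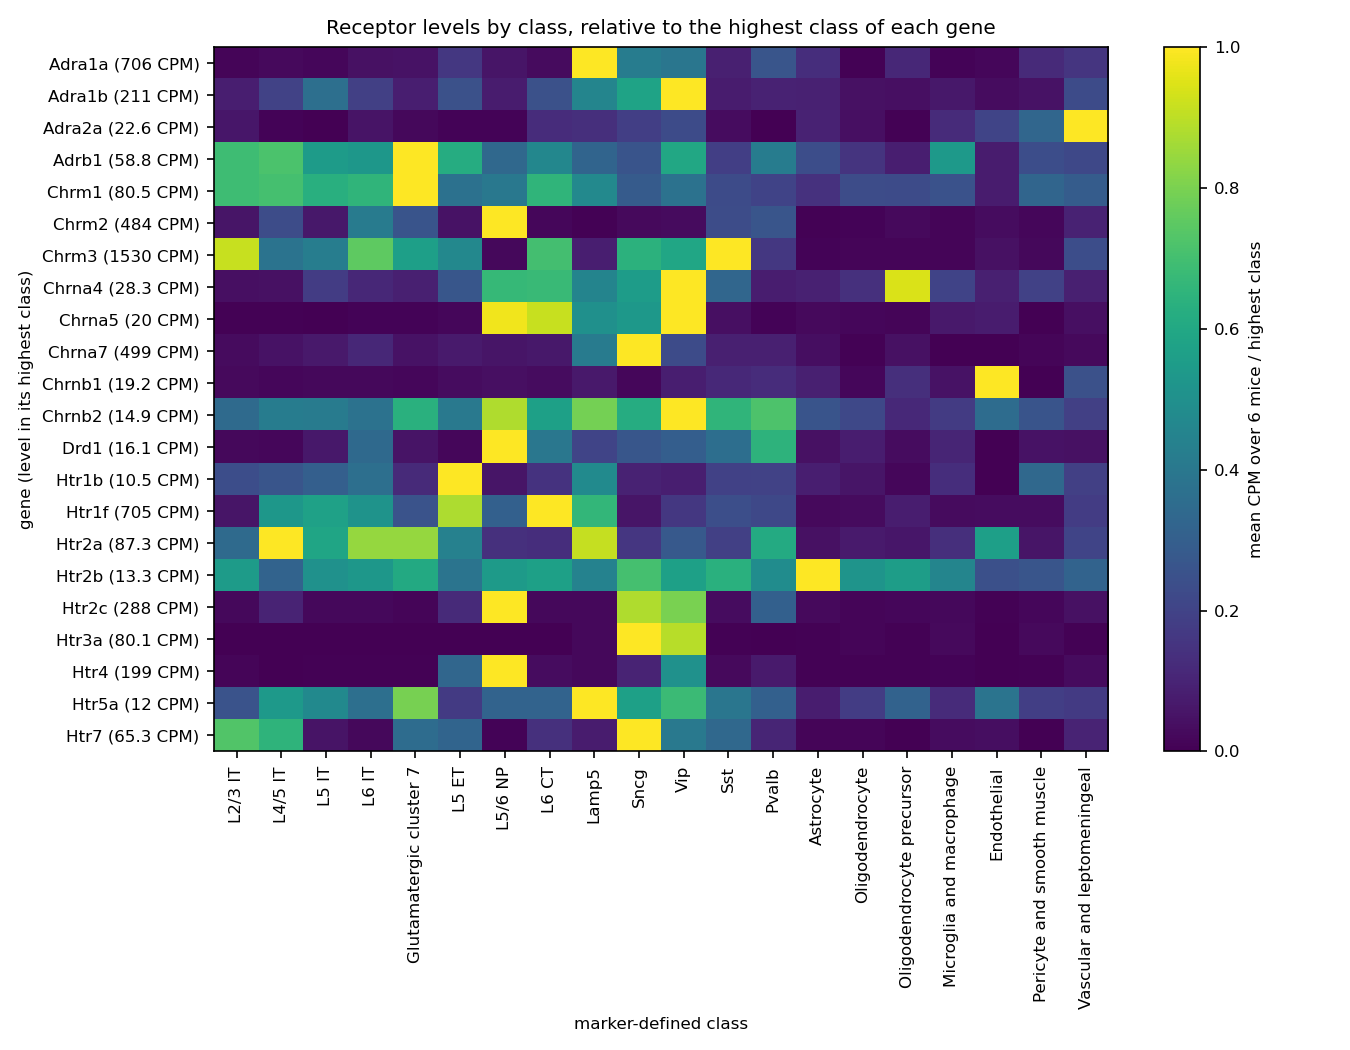
Mean level over 6 mice of 22 receptor genes that reached 10 CPM, by class (columns), as a share of the level in the gene's own highest class (colour from 0 to 1); the level in that class is printed beside the symbol. The row of Htr3a has 2 bright classes, while Chrm1 and Htr2b are spread over most classes.

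Htr1f, a Gi-coupled serotonin receptor, was highest in deep-layer projection neurons. In L6 CT nuclei Htr1f was at 784, 633 and 735 CPM in the trained mice and 762, 649 and 666 CPM in the control mice, and in L5 ET nuclei at 613, 577 and 639.6 CPM in the trained mice and 683, 569 and 635 CPM in the control mice. The ranges of these 2 classes overlapped, as did those of the trained and control mice in each. Htr1f averaged 467 ± 84.1 CPM in Lamp5 interneurons and 363 to 404 CPM in L6 IT, L4/5 IT and L5 IT, but 39.1 ± 3.43 CPM in L2/3 IT and 17.8 ± 4.16 CPM in astrocytes. With every nucleus thinned to 2000 UMIs, 71.4% of L6 CT nuclei had an Htr1f UMI, against 6.74% of L2/3 IT nuclei and 3.39% of astrocytes at the same depth. Htr1b, a receptor known from axon terminals, was highest in L5 ET, at 8.39, 9.87 and 10.5 CPM in the trained mice and 9.95, 13.9 and 10.4 CPM in the control mice. Its next class, Lamp5, averaged 5.02 ± 2.39 CPM. Htr1b overlaps D430036J16Rik on the opposite strand. Whether the counting used strand is not given in the sources used here, so the Htr1b counts are uncertain.

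The 3 Gq-coupled serotonin receptors had different class orders. Htr2a, the receptor through which psychedelic drugs act, was at 63.2, 96.2 and 110.5 CPM in the trained mice and 99.9, 83.9 and 70.2 CPM in the control mice in L4/5 IT nuclei. Lamp5, Glutamatergic cluster 7 and L6 IT followed at 79.5, 73.6 and 73.4 CPM with ranges that overlapped the first, and L6 CT had 11.5 CPM. The 120 L6b nuclei, not compared between mice, held 212 Htr2a UMIs, or 131 CPM of their pooled counts. Htr2c was at 287, 216 and 369.7 CPM in the trained mice and 389, 189.9 and 278 CPM in the control mice in L5/6 NP nuclei. Sncg and Vip interneurons had overlapping ranges, with Htr2c means of 254 ± 36.8 and 230.0 ± 46.4 CPM, and Pvalb lay below all 3 at 88.2 ± 18.3 CPM. L5 IT neurons, neighbours of L5/6 NP in depth, had 5.95 CPM of Htr2c, and in thinned nuclei 27.7% of L5/6 NP against 1.37% of L5 IT had an Htr2c UMI. Htr2b was counted in every class: astrocytes were highest, at 16.4, 10.2 and 18.3 CPM in the trained mice and 14.4, 9.90 and 10.3 CPM in the control mice, and L4/5 IT averaged 4.24 ± 1.86 CPM. Htr2b overlaps Psmd1 on the opposite strand, and whether the counting used strand is not given in the sources used here, so its counts are uncertain.

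The Gs-coupled Htr4 was concentrated in L5/6 NP, Vip and L5 ET. Its level was 226, 202 and 314 CPM in the trained mice and 183, 166 and 103 CPM in the control mice in L5/6 NP, and trained mouse 6 was highest and control mouse 5 lowest there. Vip and L5 ET had Htr4 means of 101 ± 22.1 and 65.6 ± 11.2 CPM, while L4/5 IT, L5 IT and L6 IT lay between 0.694 and 1.25 CPM. Of nuclei thinned to 2000 UMIs, 28.8% of L5/6 NP, 16.5% of Vip and 11.1% of L5 ET held an Htr4 UMI, against 0.139% of L4/5 IT. Htr7, which also signals through Gs, was at 75.6, 53.8 and 78.7 CPM in the trained mice and 70.4, 72.6 and 40.8 CPM in the control mice in Sncg interneurons. L2/3 IT and L4/5 IT had Htr7 means of 47.5 ± 3.00 and 42.5 ± 6.20 CPM, but L5 IT, L6 IT and L5/6 NP had 3.43, 1.51 and 0.688 CPM. In every mouse both upper classes lay above both of these deep IT classes. Within Sst, a cluster of 63 nuclei led by Nos1 held 71 Htr7 UMIs, or 140 CPM of its pooled counts.

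Htr3a, the subunit that every serotonin-gated ion channel needs, passed 10 CPM in 2 of the 20 classes, both of them interneurons. In Sncg interneurons Htr3a was at 66.3, 111 and 50.4 CPM in the trained mice and 56.8, 87.1 and 109 CPM in the control mice, and in Vip interneurons at 80.8, 90.9 and 65.7 CPM in the trained mice and 58.7, 65.9 and 67.8 CPM in the control mice. The 2 ranges overlapped, and every other class averaged 2.14 CPM or less. After thinning, 15.6% of Sncg and 12.6% of Vip nuclei had an Htr3a UMI, against 0.0539% of Pvalb and 0.0370% of L2/3 IT nuclei. Htr3a overlaps Gm32335 on the opposite strand, so its counts carry the same uncertainty as those of Htr2b. Its partner subunit Htr3b had 41 UMIs in all, with the highest mean, 2.10 CPM, also in Sncg. Htr5a was at 6.78, 9.97 and 26.5 CPM in the trained mice and 6.50, 10.9 and 11.2 CPM in the control mice in Lamp5 interneurons, where trained mouse 6 stood above the rest. Glutamatergic cluster 7 was next at 9.54 CPM (7.99 to 12.2 CPM), with a range that overlapped that of Lamp5.

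Dopamine receptor genes averaged at most 16.1 CPM in the 20 classes compared. Drd1, the main Gs-coupled dopamine receptor, was highest in L5/6 NP, at 11.4, 18.02 and 17.5 CPM in the trained mice and 12.2, 17.6 and 19.6 CPM in the control mice, and the groups overlapped. Pvalb interneurons averaged 10.4 ± 3.20 CPM and L6 CT neurons 6.40 ± 1.82 CPM, against 0.358 CPM in L2/3 IT and 0.283 CPM in L5 ET. The 120 L6b nuclei, too few to be compared between mice, held 62 Drd1 UMIs with a mean of 35.9 CPM. An Sst cluster of 63 nuclei led by Nos1 held 25, or 49.4 CPM of its pooled counts, where L6b had 38.4 CPM. In thinned nuclei 2.92% of L5/6 NP had a Drd1 UMI, against 0.0232% of L4/5 IT. Drd5, the other Gs-coupled receptor, was also highest in L5/6 NP, at 5.25 ± 1.91 CPM on 44 UMIs. The Gi-coupled Drd2 was highest in Sncg and Sst interneurons, at 9.09 ± 3.26 and 7.36 ± 2.32 CPM, and Drd4 in Vip, at 2.75 ± 0.961 CPM. Drd3 had 64 UMIs over all nuclei.

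The alpha1 adrenergic receptors answer noradrenaline through Gq. Adra1a and Adra1b were highest in interneurons, and Adra1d in L4/5 IT, at 4.72 ± 1.15 CPM. Adra1a in Lamp5 nuclei was at 691, 593 and 710.1 CPM in the trained mice and 745, 806 and 694 CPM in the control mice. Sncg and Vip followed at 298 ± 62.9 and 276 ± 50.7 CPM and Pvalb at 186 ± 8.83 CPM, while Sst had 61.9 ± 8.85 CPM. In thinned nuclei 72.03% of Lamp5 had an Adra1a UMI, against 2.22% of L2/3 IT and 0.629% of oligodendrocytes. Adra1b was highest in Vip, at 299, 172 and 211 CPM in the trained mice and 184, 213 and 189 CPM in the control mice, and trained mouse 2 stood above the others. Sncg and Lamp5 averaged 122 ± 26.1 and 96.5 ± 21.1 CPM of Adra1b. Among glutamatergic classes Adra1b was highest in L5 IT, at 77.6 ± 4.97 CPM. For Adra1a the highest glutamatergic class was L5 ET, at 115 ± 11.6 CPM, and L5 IT, at 13.0 CPM, lay above L2/3 IT alone. Astrocytes had 92.8 ± 16.9 CPM of Adra1a and oligodendrocytes 4.30 ± 1.45 CPM.

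Adra2a, the Gi-coupled receptor that also serves as a brake on noradrenaline release, was highest in vascular and leptomeningeal nuclei, at 8.67, 35.9 and 16.6 CPM in the trained mice and 14.0, 33.3 and 27.0 CPM in the control mice. The values within each group spread widely there, on 89 UMIs, and the next class, pericytes and smooth muscle, held 8. Vascular and leptomeningeal clusters of 423 and 236 nuclei held 48 and 35 of the 89. The rest of that class made up 60.3, 28.8 and 46.0% of it in trained mice 2, 4 and 6 and 37.1, 26.8 and 16.9% in control mice 1, 3 and 5. The part of this mix in the Adra2a spread was not tested. Adrb1, the Gs-coupled receptor common in cortex, was spread over glutamatergic classes and was highest in Glutamatergic cluster 7, at 58.3, 58.8 and 66.4 CPM in the trained mice and 58.5, 51.8 and 59.2 CPM in the control mice. L4/5 IT and L2/3 IT averaged 42.3 ± 7.66 and 40.5 ± 7.88 CPM, and microglia and macrophages 31.9 ± 8.23 CPM. Adrb3, best known from fat tissue, had its highest mean in L2/3 IT, 5.66 ± 1.31 CPM on 315 UMIs.

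Among the muscarinic acetylcholine receptors, Chrm3 was high in most neuron classes. Chrm3 was at 1723, 1359.7 and 1590.3 CPM in the trained mice and 1352, 1308 and 1846 CPM in the control mice in Sst interneurons. L2/3 IT, L6 IT and L6 CT followed at 1403 ± 99.7, 1149 ± 115 and 1070.2 ± 126 CPM, each with a range that overlapped the class before it. The 120 L6b nuclei, not compared between mice, held 3301 Chrm3 UMIs, or 2044 CPM of their pooled counts. L5/6 NP neurons stood apart from the other glutamatergic classes, at 33.8 ± 14.3 CPM, and the next lowest of those was L4/5 IT at 585 ± 77.0 CPM. After thinning, 91.0% of L2/3 IT and 83.1% of Sst nuclei held a Chrm3 UMI, against 5.31% of L5/6 NP nuclei and 3.17% of astrocytes. Chrm3 overlaps 4 other annotated genes on its own strand, so its reads may be shared with them. Chrm2, the Gi-coupled receptor that also limits acetylcholine release, had L5/6 NP as its highest class, at 642, 374 and 557 CPM in the trained mice and 573, 407 and 350.3 CPM in the control mice. L6 IT followed at 201 ± 18.9 CPM. L5 IT, L2/3 IT and L6 CT averaged 30.8, 26.9 and 8.65 CPM. Within Sst, a cluster of 63 nuclei led by Nos1, Sst, Npy and Chodl held 825 Chrm2 UMIs, or 1629 CPM, against 112 ± 21.4 CPM for the class. Chrm2 overlaps 9330158H04Rik on the opposite strand, and that gene is among the 10 leading genes of the same cluster, so this Chrm2 value is uncertain in the way given for Htr2b. A Pvalb cluster of 274 nuclei held 1038, or 387 CPM, against 127 ± 24.9 CPM for that class.

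Chrm1, the Gq-coupled receptor of pyramidal neurons, was spread over the glutamatergic classes. It was highest in Glutamatergic cluster 7, at 65.8, 83.4 and 78.4 CPM in the trained mice and 77.7, 84.8 and 92.6 CPM in the control mice. L4/5 IT, L2/3 IT, L6 IT, L6 CT and L5 IT averaged 56.8, 55.6, 52.6, 52.5 and 50.8 CPM with overlapping ranges, while L5 ET had 30.2 CPM. Interneuron classes ran between 16.1 CPM in Pvalb and 38.0 CPM in Lamp5. Glial and vascular classes had up to 26.2 CPM, classes in which Slc17a7 was also found. Chrm4 had 73 UMIs and Chrm5 had 9 over all nuclei.

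Of the 5 nicotinic subunit genes that reached 10 CPM, 4 were highest in an interneuron class. Chrna7, which can form channels by itself, was at 413, 355 and 494 CPM in the trained mice and 482, 593 and 657 CPM in the control mice in Sncg nuclei. Control mouse 1 lay below trained mouse 6, so the groups overlapped. Lamp5 and Vip had Chrna7 means of 208 ± 33.8 and 114 ± 30.6 CPM, and no other class passed 55.9 CPM, the level of L6 IT. After thinning, 50.0% of Sncg nuclei had a Chrna7 UMI, against 0.301% of microglia and macrophages. Within Sncg, the cluster of 165 nuclei had 922.8 CPM and the cluster of 214 nuclei 235.6 CPM. Chrna7 overlaps Gm44741 on its own strand, so its reads may be shared with that gene.

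Chrna4 and Chrnb2 encode the pair of subunits found in most nicotinic channels of the brain. Chrna4 was at 22.9, 47.8 and 22.8 CPM in the trained mice and 21.7, 25.7 and 29.0 CPM in the control mice in Vip interneurons, where trained mouse 4 stood apart. Oligodendrocyte precursors followed at 26.7 ± 7.41 CPM, L6 CT at 19.2 ± 3.71 CPM and L5/6 NP at 18.9 ± 4.84 CPM. Chrnb2 was spread over neurons, highest in Vip at 13.5, 15.1 and 18.6 CPM in the trained mice and 14.7, 12.9 and 14.5 CPM in the control mice, and 1.70 CPM in oligodendrocyte precursors. L5/6 NP was next at 13.1 CPM (6.25 to 22.6 CPM), with a range that overlapped that of Vip. Chrnb2 overlaps Adar on the opposite strand, so its counts carry the same uncertainty as those of Htr2b. Chrna5, an accessory subunit that joins such channels, was at 13.5, 11.6 and 25.7 CPM in the trained mice and 24.3, 16.9 and 27.8 CPM in the control mice in Vip. L5/6 NP and L6 CT had overlapping ranges, with Chrna5 means of 19.5 ± 9.47 and 18.3 ± 4.70 CPM, whereas L5 IT, L4/5 IT and L2/3 IT were at 0.0687, 0.117 and 0.0857 CPM. Within L6 CT, a cluster of 1324 nuclei carried 463 of its 855 UMIs, at 37.4 CPM. The muscle subunit Chrnb1 passed 10 CPM only in endothelial nuclei, on 12 UMIs in 275 nuclei, with 42.4, 0 and 19.3 CPM in the trained mice and 9.02, 12.1 and 32.5 CPM in the control mice, too few UMIs to place it.

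The 24 genes below 10 CPM in the 20 classes compared had between 6 and 1176 UMIs over all 49292 nuclei, with a median of 132. Outside those classes, the 120 L6b nuclei held 18 Htr1d UMIs, or 11.2 CPM of their pooled counts. Adra2b had 6 UMIs, Chrm5 9, Chrnb4 23, Chrna10 37, Htr3b 41, Chrna2 46, Chrna1 50, Drd3 64, Chrm4 73, Drd4 78, Htr1d 108, Chrna3 121, Htr5b 143 and Chrna9 155. Drd5 had 210, Drd2 239, Chrna6 and Chrnb3 270 each, Chrna1os 554, Htr1a 572, Adrb3 581, Htr6 586, Adra1d 632 and Adra2c 1176. The Gi-coupled Adra2c averaged 9.11 ± 2.93 CPM in Sncg, Htr6 2.85 CPM in Sncg and the antisense RNA Chrna1os 7.19 CPM in oligodendrocyte precursors. Htr1a, a Gi-coupled receptor, averaged 9.51 ± 4.30 CPM in Sst and 3.04 ± 2.33 CPM in Lamp5. Chrna3 averaged 4.28 ± 1.83 CPM in Vip and 1.10 ± 0.573 CPM in Lamp5, on 25 and 6 UMIs. Chrna2, known from a class of Sst neurons, had its highest mean, 1.22 ± 0.969 CPM, in Sst.

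Several of the genes lie beside each other in mm10 (GENCODE M21), and the class of highest mean was the same for some neighbours and not for others. On chromosome 9, Chrna5 (54980880 to 55007779, plus strand), Chrna3 (55010111 to 55026562, minus strand) and Chrnb4 (55028154 to 55048779, minus strand) lie 2.3 and 1.6 kb apart. All 3 had their highest mean in Vip, but Chrnb4 had 23 UMIs over all nuclei and averaged 0.675 CPM there (0 to 1.43 CPM). The Vip range of Chrna5 overlapped that of L5/6 NP. Chrna5 was also found in L5/6 NP and L6 CT, where Chrna3 averaged 1.04 and 0.473 CPM. Htr3a and Htr3b lie 23.9 kb apart on the same chromosome and Drd2 375.6 kb further on. Sncg was the highest class of each, with a range that overlapped the next class in each, and Htr3b had 41 UMIs over all nuclei. Chrnb3 and Chrna6, 3.5 kb apart on chromosome 8, had 270 UMIs each. Chrnb3 was highest in Glutamatergic cluster 7, at 1.79 CPM, and Chrna6 in L5 ET, at 1.71 CPM (0.964 to 2.47 CPM). Glutamatergic cluster 7 was the next class of Chrna6, at 1.10 CPM (0 to 1.88 CPM), and the 2 ranges overlapped. Adrb1 and Adra2a, 2673.2 kb apart on chromosome 19, were highest in Glutamatergic cluster 7 and in vascular and leptomeningeal nuclei. These are positions and levels side by side, with no test.

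Whether receptors of the same transmitter were found in the same nuclei was described in nuclei thinned to 2000 UMIs, which kept 17024 nuclei of trained and 23247 of control mice and left out 3447 of trained and 5574 of control mice. Of 11 pairs, 3 had at least 5 nuclei with both expected from the separate shares in some class, in 30 combinations of pair and class. Both genes were seen more often than the product of their shares in 17 of the 30 (56.7%), with ratios of observed to expected nuclei between 0.112 and 1.77 and a median of 1.00. Chrm1 and Chrm3 sat near 1 in neurons: in L2/3 IT, 90.2% of nuclei with a Chrm1 UMI had Chrm3, against 91.0% of nuclei without. Htr2c was found in 18.2% of Pvalb nuclei with Htr2a and 11.2% of those without, a difference in that direction in 5 of 6 mice. Adra1b was found in 1.91% of L4/5 IT nuclei with Adra1a and 6.92% of those without, and higher beside Adra1a in 0 of 6 mice, on 3 nuclei with both where 10.6 were expected. Without thinning this pair went the other way there, at 27.7% against 24.8%, and higher beside Adra1a in 5 of 6 mice. Thinned to 1000 UMIs, 31.6% of combinations were above the product, and without thinning 83.1%, so the share moved with depth and no joint expression is read from it.

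Trained and control mice were then compared. UMI counts were summed per mouse and class and compared with the quasi-likelihood test of edgeR, with p-values adjusted by Benjamini and Hochberg's method over all genes of a class, and p-values measure the spread between 3 mice in each group. Of the 47 genes, 29 had enough counts to be tested in at least 1 class, in 264 tests of gene and class, and 18, with 6 to 319 UMIs over all nuclei, were tested in none. No receptor test passed an adjusted p of 0.05, and the smallest was 0.50 (Htr1f, vascular and leptomeningeal). Over all genes, 0.0153% of 202880 tests passed. At an unadjusted p under 0.05 there were 21 receptor tests (7.95%), beside 4.09% of all tests. Trained mice had the higher level in 8 of them, beside 2.25% of all tests with such a p and that sign, and the lower level in 13, beside 1.84%. DESeq2 found 0 receptor tests past the adjusted threshold and 14 at the unadjusted one, of 775 (1.81%, beside 1.04% of all its tests), with 177 adjusted values missing. The values of all 3 trained mice lay beyond those of all 3 controls in 27 receptor tests (10.2%), beside 9.45% of all tests. The trained mice lay above in 12, beside 4.88% of all tests, and below in 15, beside 4.57%. The median log2 fold change was -0.04 over the receptor tests and -0.0036 over all tests.

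**Figure D2:**
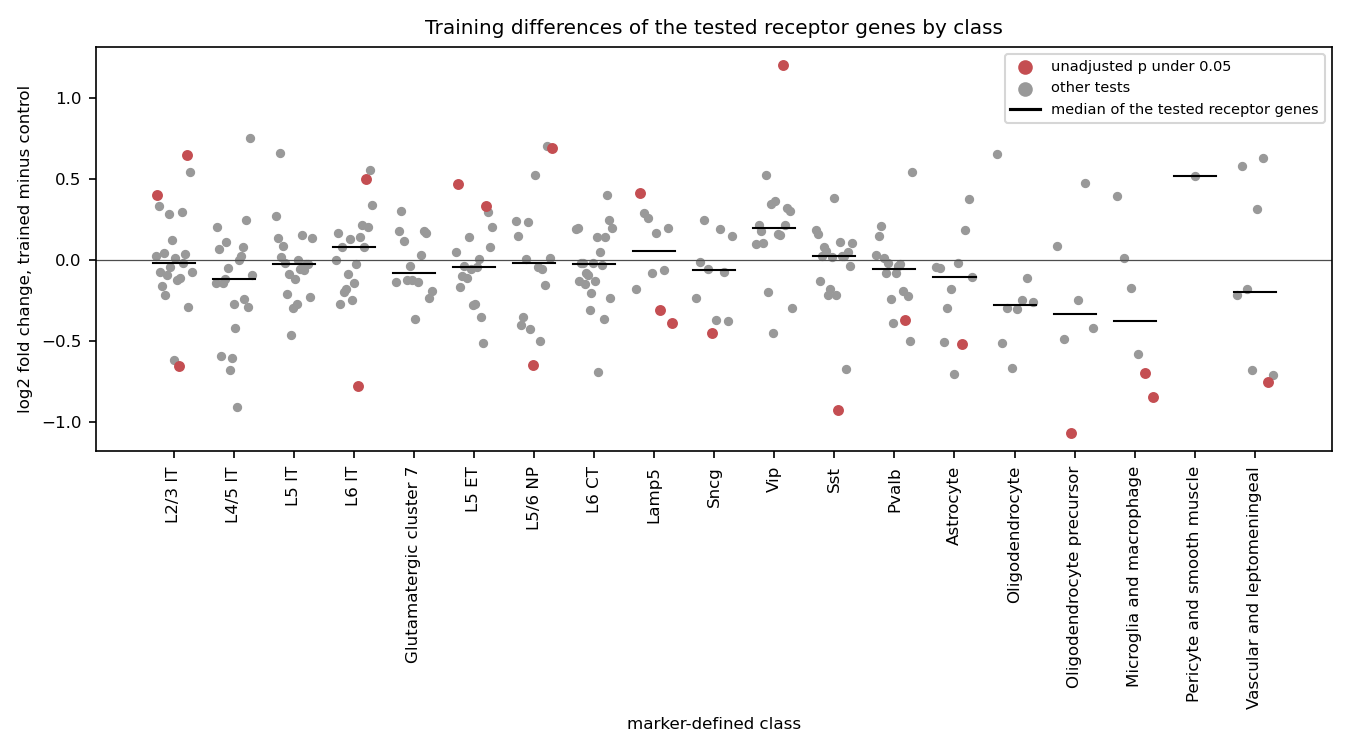
Log2 fold change (trained minus control, vertical axis) of every tested receptor gene in each class that had one (horizontal axis); red points had an unadjusted p under 0.05 and bars are the class medians over the tested receptor genes. The 21 red points lie on both sides of 0, and no point passed the adjusted threshold.

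The 12 tests of smallest unadjusted p were spread over 10 classes, and none passed the adjusted threshold, so no change is read from them. For Htr4 in L5/6 NP, the class where the gene was highest, trained mice had 226, 202 and 314 CPM and control mice 183, 166 and 103 CPM. The groups did not overlap, and trained mouse 6 and control mouse 5 were the extremes. The log2 fold change was 0.69 ± 0.21 (SE, n = 3 each; edgeR's quasi-likelihood test, unadjusted p = 0.00777, adjusted p = 1.00). It was 0.46 with the median UMIs per nucleus of each mouse as a covariate, and 0.49 without control mouse 5. Without the filter on low counts the same test had a log2 fold change of 0.67 and an adjusted p of 0.049. In L5 ET, Htr4 was at 76.5, 65.6 and 77.9 CPM in trained and 58.8, 66.5 and 47.9 CPM in control mice, with trained mouse 4 just below control mouse 3. Its log2 fold change there was 0.33 ± 0.14 (edgeR, unadjusted p = 0.0284, adjusted p = 1.00).

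Htr2a in Vip interneurons had 43.1, 14.0 and 44.3 CPM in trained mice, on 75 UMIs, against 10.2, 14.5 and 20.6 CPM in control mice, on 51 UMIs. Trained mice 2 and 6 stood well above the rest and trained mouse 4 among the controls. The log2 fold change was 1.20 ± 0.39 (edgeR, unadjusted p = 0.00671, adjusted p = 1.00), and without trained mouse 4 it was 1.6 with an adjusted p of 0.039. With the mitochondrial share as a covariate it was 0.79. Htr2c in Pvalb interneurons, at 70.7, 67.9 and 92.7 CPM in trained and 109, 79.8 and 109 CPM in control mice, overlapped between groups. Its log2 fold change was -0.37 ± 0.15 (edgeR, unadjusted p = 0.0225, adjusted p = 1.00).

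Among the Gi-coupled serotonin receptors, Htr1a in Sst interneurons was at 5.78, 5.34 and 8.31 CPM in trained and 7.95, 14.4 and 15.3 CPM in control mice. Control mouse 1 lay within the trained range, and the log2 fold change was -0.93 ± 0.32 (edgeR, unadjusted p = 0.0108, adjusted p = 1.00). Htr1b in L6 IT was at 2.86, 2.85 and 2.56 CPM in trained and 4.69, 4.13 and 5.82 CPM in control mice, on 41 UMIs in trained and 91 in control mice. The groups did not overlap, and the log2 fold change was -0.78 ± 0.28 (edgeR, unadjusted p = 0.0167, adjusted p = 1.00). Htr1f in astrocytes had 15.7, 14.9 and 13.1 CPM in trained and 21.4, 24.0 and 17.4 CPM in control mice, also without overlap, and a log2 fold change of -0.52 ± 0.20 (edgeR, unadjusted p = 0.0211, adjusted p = 0.52). Slc17a7, a gene of neurons, was at 40.3 to 81.5 CPM in the trained mice and 62.6 to 75.0 CPM in the control mice in the same nuclei. The 9 striatal marker genes there summed to 686 to 2604 CPM in the trained mice and 194 to 430.0 CPM in the control mice, and to 43.1 to 60.6 CPM in the trained mice and 59.9 to 70.7 CPM in the control mice without Pde10a. Their part in the Htr1f value was not tested.

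The smallest adjusted p of all receptor tests belonged to Htr1f in vascular and leptomeningeal nuclei. Trained mice had 95.4, 112 and 71.3 CPM and control mice 207, 121 and 149 CPM, without overlap, and the log2 fold change was -0.75 ± 0.24 (edgeR, unadjusted p = 0.00724, adjusted p = 0.50). The glutamatergic marker list summed to 546 to 825 CPM in the trained mice and 654 to 985 CPM in the control mice in those nuclei, and Slc17a7 alone was at 76.1 to 125 CPM in the trained mice and 95.5 to 162 CPM in the control mice. The class pools 4 clusters, and the 2 that lay lowest in its marker score together made up 60.3, 28.8 and 46.0% of the class in trained mice 2, 4 and 6 and 37.1, 26.8 and 16.9% in control mice 1, 3 and 5. The part of the markers and of this mix was not tested. With doublets kept, the log2 fold change was -0.15. Chrm3 in oligodendrocyte precursors had 11.8, 17.6 and 3.70 CPM in trained and 28.9, 23.0 and 30.4 CPM in control mice, on 18 UMIs in trained and 73 in control mice. The groups did not overlap, and the log2 fold change was -1.07 ± 0.39 (edgeR, unadjusted p = 0.00898, adjusted p = 1.00), or -0.17 with doublets kept. Slc17a7 in those nuclei was at 52.5 to 61.9 CPM in the trained mice and 48.9 to 57.9 CPM in the control mice, and Gad1, the enzyme of GABA synthesis, at 64.2 to 83.7 CPM in the trained mice and 42.2 to 59.7 CPM in the control mice. The part of free neuronal RNA in both values was not tested.

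Adra1b in L5 ET was at 65.7, 54.2 and 63.9 CPM in trained and 43.8, 54.0 and 33.7 CPM in control mice. Trained mouse 4 lay just above control mouse 3, the highest control, so the groups did not overlap, and the log2 fold change was 0.47 ± 0.16 (edgeR, unadjusted p = 0.0115, adjusted p = 1.00). Chrna7 in Sncg interneurons had 413, 355 and 494 CPM in trained and 482, 593 and 657 CPM in control mice. Trained mouse 6 exceeded control mouse 1, and the log2 fold change was -0.45 ± 0.15 (edgeR, unadjusted p = 0.00658, adjusted p = 0.85), the smallest unadjusted p of the 264. The Sncg cluster of 165 nuclei, where Chrna7 was higher, made up 44.8, 35.9 and 38.3% of the class in trained mice 2, 4 and 6 and 40.0, 51.7 and 54.3% in control mice 1, 3 and 5, and the part of this mix in the value was not tested. Chrna4 in L5/6 NP had 16.0, 13.3 and 15.0 CPM in trained and 20.8, 25.1 and 23.4 CPM in control mice, without overlap, and a log2 fold change of -0.65 ± 0.25 (edgeR, unadjusted p = 0.0188, adjusted p = 1.00).

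**Figure D3:**
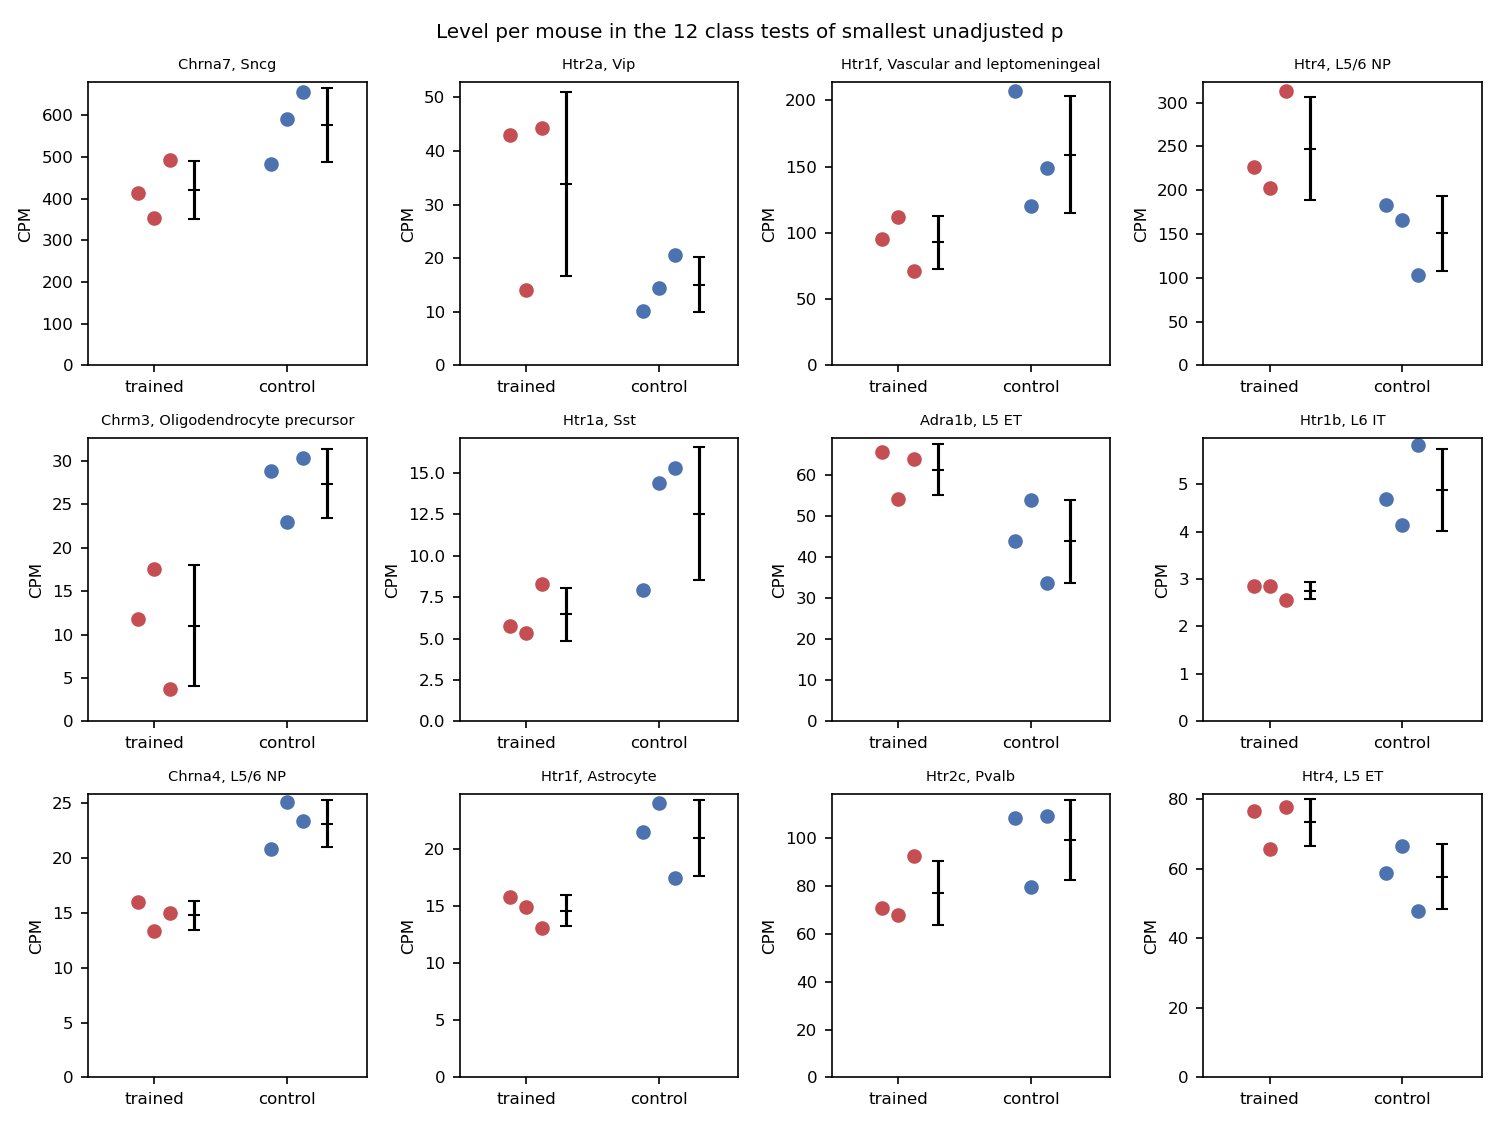
Level in each mouse (points, CPM, axes from 0) in the 12 class tests of smallest unadjusted p, trained mice left and control mice right, with the mean and SD over 3 mice beside them. In 7 panels the 3 trained mice lie beyond all 3 controls, and no panel shows a difference that passed the adjusted threshold.

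Across classes, some genes mostly kept 1 sign and others did not. The classes come from the same 6 mice, so these counts are no independent tests. How many of all genes keep 1 sign to this extent was not counted, so nothing particular to the receptors is read from them. Adra1b was higher in trained mice in 15 of the 17 classes where it was tested, with log2 fold changes between -0.05 and 0.65 and an unadjusted p under 0.05 in L2/3 IT, L5 ET and Lamp5. Its values in L2/3 IT were 18.8, 18.4 and 24.4 CPM in trained and 13.4, 17.5 and 15.7 CPM in control mice, and in Lamp5 86.8, 115 and 127 CPM in trained and 68.3, 89.6 and 92.4 CPM in control mice. The groups did not overlap in L2/3 IT, and in Lamp5 trained mouse 2 lay below 2 of the controls. Htr4 was higher in 6 of 8 classes, at an unadjusted p under 0.05 in L2/3 IT, L5 ET and L5/6 NP, and lower in Sncg and Pvalb. Htr1b had a negative sign in 6 of 6 classes, with 2 at an unadjusted p under 0.05 and a log2 fold change as small as -0.00082 in L4/5 IT. Chrm3 had a negative sign in 16 of 18 classes with a median log2 fold change of -0.09, and Chrna7 in 12 of 15 with a median of -0.24. By contrast, Htr2a was higher in 10 of 15 and lower in 5, Adra1a higher in 10 of 17 and Adrb1 higher in 8 of 15. Htr2c was higher in 7 of 12, Htr7 in 7 of 11 and Chrm2 in 6 of 13.

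**Figure D4:**
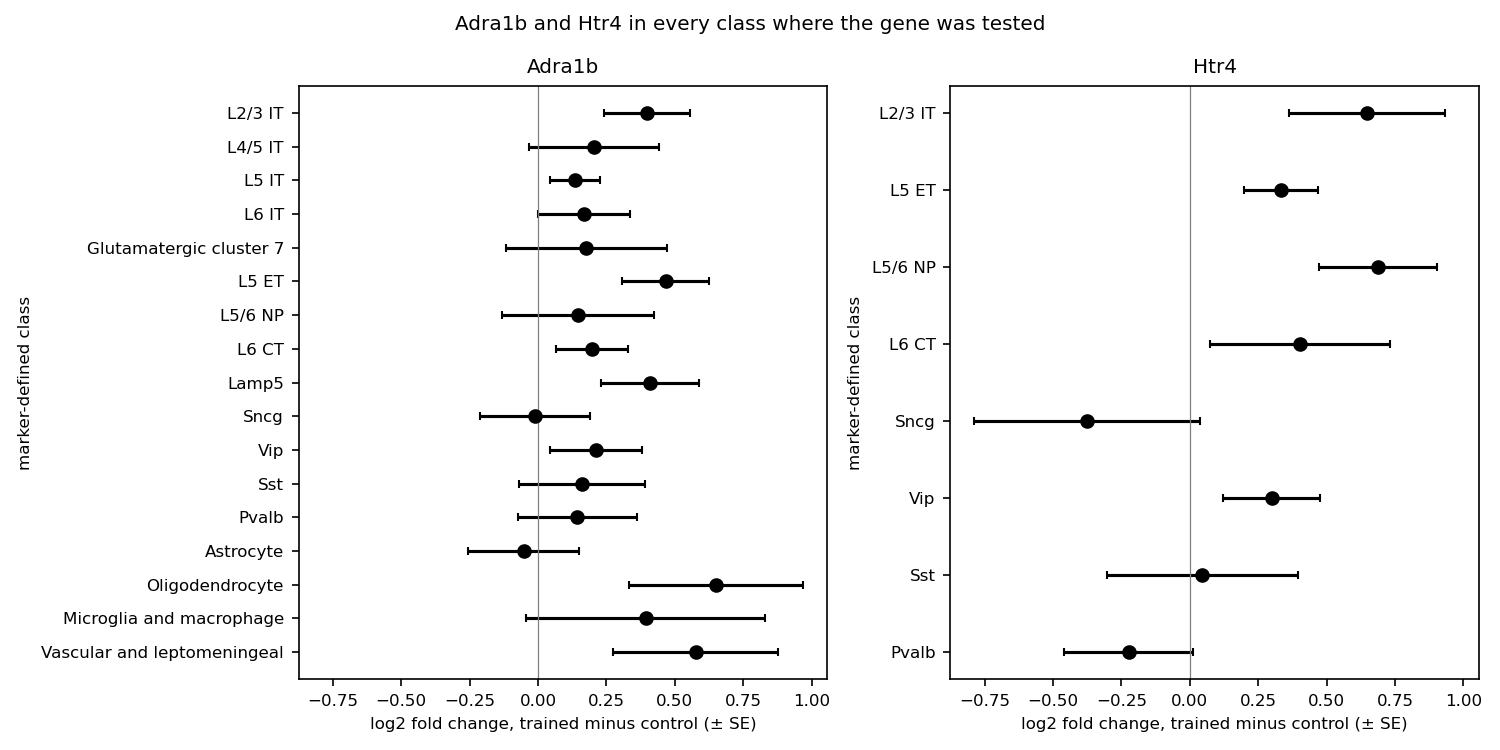
Log2 fold change (trained minus control, horizontal axis, points with bars of 1 SE) of Adra1b (left) and Htr4 (right) in every class where the gene was tested (rows). Adra1b lies right of 0 in 15 of 17 classes and Htr4 in 6 of 8, with Htr4 in Sncg and Pvalb on the other side.

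Sums over all nuclei, and over all glutamatergic, GABAergic or non-neuronal nuclei outside the unnamed clusters, give low genes more counts. In each of these sums a different mix of classes and a different level per nucleus cannot be told apart. Over all nuclei, 40 of the 47 genes were tested, and 0 passed the adjusted threshold, beside 0% of 19546 genes. An unadjusted p under 0.05 was found for 2, beside 3.21%. DESeq2 tested 47 of the genes, with 0 passing and 2 at an unadjusted p under 0.05. Its share over all genes was not counted in this or the other larger sums. Adra1b was at 44.8, 43.3 and 48.6 CPM in trained and 40.5, 37.7 and 34.5 CPM in control mice (log2 fold change 0.28 ± 0.09, edgeR, unadjusted p = 0.0124, adjusted p = 1.00). Htr4 was at 18.2, 15.1 and 17.3 CPM in trained and 14.4, 13.6 and 9.28 CPM in control mice (log2 fold change 0.44 ± 0.17, edgeR, unadjusted p = 0.0294, adjusted p = 1.00), and 0.28 without control mouse 5, which was lowest. Without trained mouse 6, which gave 399 of the 408 nuclei of the largest unnamed group, the log2 fold changes were 0.23 for Adra1b and 0.42 for Htr4. In neither gene did the groups overlap. Drd5, next in p, was at 0.705, 0.583 and 0.693 CPM in trained and 0.421, 0.544 and 0.547 CPM in control mice (log2 fold change 0.39 ± 0.22, edgeR, unadjusted p = 0.11, adjusted p = 1.00) on 104 UMIs in trained and 106 in control mice, also without overlap.

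In all glutamatergic nuclei, 36 receptor genes were tested, 0 passed (0% of all genes) and 2 had an unadjusted p under 0.05, beside 3.4% of all genes. DESeq2 had 0 and 2 of 46. Adra1b was at 46.6, 43.7 and 50.9 CPM in trained and 40.8, 37.9 and 35.8 CPM in control mice (log2 fold change 0.30 ± 0.09, edgeR, unadjusted p = 0.00954, adjusted p = 1.00). Htr4 was at 20, 16.0 and 19.3 CPM in trained and 14.3, 14.2 and 8.98 CPM in control mice (log2 fold change 0.55 ± 0.19, edgeR, unadjusted p = 0.0168, adjusted p = 1.00), and its log2 fold change was 0.37 without control mouse 5. Neither overlapped between groups. Htr1b followed at 3.19, 3.11 and 2.71 CPM in trained and 3.75, 3.86 and 3.35 CPM in control mice (log2 fold change -0.28 ± 0.15, edgeR, unadjusted p = 0.0889, adjusted p = 1.00), also without overlap. In all GABAergic nuclei 26 were tested, with 0 passing (0% of all genes) and 0 at an unadjusted p under 0.05, beside 2.22%. DESeq2 had 0 and 0 of 46. Htr1a had the smallest p, at 2.39, 1.67 and 4.38 CPM in trained and 3.04, 5.42 and 5.44 CPM in control mice (log2 fold change -0.72 ± 0.37, edgeR, unadjusted p = 0.0740, adjusted p = 1.00), on 58 UMIs in trained and 115 in control mice. Without trained mouse 4 its log2 fold change was -0.45 and without trained mouse 6 -1.15. Chrna7 was at 101, 83.9 and 105 CPM in trained and 112, 98.4 and 121 CPM in control mice (log2 fold change -0.20 ± 0.11, edgeR, unadjusted p = 0.0961, adjusted p = 1.00), and at -0.10 without trained mouse 4 and -0.12 without control mouse 5. Chrna5 was at 3.15, 3.48 and 5.68 CPM in trained and 5.90, 4.70 and 5.30 CPM in control mice (log2 fold change -0.40 ± 0.26, edgeR, unadjusted p = 0.16, adjusted p = 1.00), and between -0.68 and -0.23 without trained mouse 6 or 2. In each of the 3 the groups overlapped.

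In all non-neuronal nuclei 21 were tested, with 0 passing (0% of all genes) and 3 at an unadjusted p under 0.05, beside 6.21%. DESeq2 had 0 and 2 of 47, with 26 of the 47 adjusted values missing. Htr1f was at 24.1, 30.8 and 24.0 CPM in trained and 38.1, 39.1 and 29.4 CPM in control mice (log2 fold change -0.43 ± 0.15, edgeR, unadjusted p = 0.0182, adjusted p = 0.69). Trained mouse 4 exceeded control mouse 5. Chrm3 was at 49.1, 46.0 and 71.1 CPM in trained and 43.0, 43.6 and 35.0 CPM in control mice (log2 fold change 0.44 ± 0.17, edgeR, unadjusted p = 0.0260, adjusted p = 0.73), without overlap, but its log2 fold change was -0.20 with doublets kept and 0.23 without trained mouse 6, the highest. Adra1b was at 17.1, 23.4 and 18.6 CPM in trained and 15.6, 16.6 and 12.5 CPM in control mice (log2 fold change 0.40 ± 0.17, edgeR, unadjusted p = 0.0419, adjusted p = 0.79), without overlap, and 0.26 without trained mouse 4.

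The difference between the glutamatergic and the GABAergic response was tested itself, on the same sums and with the mouse as a block. Here too a different mix of classes within the sums cannot be told apart from a different level per nucleus. None of 38 receptor genes passed (0% of 17706 genes), and 2 had an unadjusted p under 0.05, beside 4.81% of all genes. For Htr4 the log2 fold change of the glutamatergic sum exceeded that of the GABAergic sum by 0.62 ± 0.12 (edgeR, unadjusted p = 7.6e-05, adjusted p = 0.24). In GABAergic nuclei Htr4 was at 22.2, 18.2 and 21.8 CPM in trained and 25.0, 21.1 and 18.6 CPM in control mice, which overlapped. For Adra1b the excess was 0.22 ± 0.083 (edgeR, unadjusted p = 0.016, adjusted p = 0.94).

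The genes that carry receptor signals further were taken from 5 lists, and no gene of any list passed the adjusted threshold in any class by edgeR or DESeq2. Of G protein subunits, 4 tests were higher and 3 lower at an unadjusted p under 0.05 among 253 (2.77%), below the 4.09% of all tests. Of second messenger enzymes and kinases 16 were higher and 7 lower of 372 (6.18%), of desensitization and RGS genes 7 higher and 8 lower of 217 (6.91%), of nicotinic accessory proteins 3 higher and 3 lower of 120 (5.0%), and of genes for transmitter synthesis, transport and breakdown 8 higher and 0 lower of 87 (9.20%), with a median log2 fold change of -0.04 and 11 of 20 genes tested. In the same order of lists, DESeq2 had 0 of 298, 17 of 457, 6 of 299, 3 of 160 and 6 of 298 tests at an unadjusted p under 0.05, beside 1.04% of all its tests. Its adjusted values were missing for 25, 34, 34, 15 and 71 of these tests. List medians lay between -0.04 and 0.02 on the log2 scale, beside -0.0036 over all tests.

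Adcy5, an adenylyl cyclase, and Gnal, a G protein alpha subunit that stimulates it, were both among the leading tests in L5 ET. Adcy5 was at 48.7, 41.5 and 40.7 CPM in the trained mice and 33.0, 33.9 and 25.9 CPM in the control mice there with a log2 fold change of 0.49 ± 0.15 (edgeR, unadjusted p = 0.00484, adjusted p = 1.00), and Gnal at 31.9, 27.8 and 35.1 CPM in the trained mice and 24.7, 25.8 and 22.7 CPM in the control mice with a log2 fold change of 0.36 ± 0.15 (edgeR, unadjusted p = 0.0293, adjusted p = 1.00). In both genes the lowest trained mouse lay above the highest control.

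In Lamp5 interneurons, Prkca, a protein kinase C downstream of Gq, was at 856, 690.2 and 872 CPM in the trained mice and 679, 643 and 470.2 CPM in the control mice with a log2 fold change of 0.42 ± 0.14 (edgeR, unadjusted p = 0.00444, adjusted p = 0.78), without overlap. Rgs10, which shortens Gi signals, was at 39.3, 48.7 and 47.1 CPM in the trained mice and 68.3, 85.2 and 51.8 CPM in the control mice in Lamp5 with a log2 fold change of -0.61 ± 0.21 (edgeR, unadjusted p = 0.00762, adjusted p = 0.84), also without overlap. Grk4, a receptor kinase, was at 8.08, 5.82 and 17.1 CPM in the trained mice and 25.5, 19.3 and 18.1 CPM in the control mice in Vip with a log2 fold change of -1.09 ± 0.37 (edgeR, unadjusted p = 0.00884, adjusted p = 1.00). Its highest trained mouse lay below the lowest control. Lypd6 encodes a membrane-anchored protein that binds nicotinic receptors. In oligodendrocyte precursors it was at 31.5, 12.8 and 25.9 CPM in the trained mice and 38.2, 36.1 and 60.7 CPM in the control mice. Its log2 fold change there was -0.96 ± 0.33 (edgeR, unadjusted p = 0.00660, adjusted p = 1.00). In oligodendrocytes it was at 7.75, 8.27 and 6.49 CPM in the trained mice and 12.9, 10.6 and 18.1 CPM in the control mice. The log2 fold change in oligodendrocytes was -0.85 ± 0.31 (edgeR, unadjusted p = 0.0135, adjusted p = 1.00). The groups did not overlap in either class. Lypd6 was also among the leading genes of Sst interneuron clusters of 378 and 215 nuclei. The part of free neuronal RNA in its glial values was not tested. Gnb4, a G protein beta subunit, was at 43.3, 24.4 and 26.5 CPM in the trained mice and 17.9, 12.6 and 15.8 CPM in the control mice in vascular and leptomeningeal nuclei with a log2 fold change of 0.97 ± 0.37 (edgeR, unadjusted p = 0.0192, adjusted p = 0.62), without overlap.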

How the data were processed

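Nuclei of the forelimb region of mouse motor cortex were sequenced on the 10x 3' platform, with a shallow and a deep run per mouse that share 1 barcode set. The authors deposited 1 matrix of UMI counts (unique molecular identifiers per gene and barcode, not normalized) for 3 trained and 3 control mice, made with Cell Ranger 4.0.0 on mm10 per the submitters' processing notes. Whether introns or strand were used in counting is not given in the sources used here.

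Of 51926 barcodes, 51683 had at least 500 genes and under 5% mitochondrial UMIs. Scrublet, with an expected rate of 6%, marked 2391 doublets, which were left out, and 49292 nuclei were kept. Total counts per mouse in the matrix were 46798359 to 91495029. Nuclei were clustered at 2 levels with scanpy 1.11.5 and leidenalg 0.10.2 (2000 variable genes without the 47 receptor genes, 30 principal components, 20 neighbours, resolution 1.0). A cluster took the name of the marker list with the highest mean log2 fold when that was at least 0.5, at least 3 of the markers were detected in 10% of its nuclei and no other list had more markers among its 10 leading genes. A shallow cluster also needed at least 1 leading marker. Interneuron clusters with Slc17a7, and glutamatergic clusters with Gad1, in over 50% of nuclei took no name. An interneuron cluster also took none under a joint condition on the genes that name these classes. Lamp5, Pvalb, Sst or Vip of another class was then in over 50% of nuclei and its own such gene in under 10%. The clustering levels, these naming limits and the minimum of 5 expected nuclei in the co-detection description were set after the data had been seen. The members, gene lists and tests were chosen with earlier results of these data known.

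Counts were summed per mouse and class, for classes with at least 20 nuclei in every mouse, and fitted across all genes with edgeR 4.0.16 in R 4.3.3 (TMM, filterByExpr, robust quasi-likelihood test, Benjamini-Hochberg adjustment within a class, threshold 0.05). The SE of a log2 fold change is its size divided by the square root of the F statistic. An exact permutation test of 3 against 3 mice cannot go below p = 0.1 and was not used. Shares of nuclei were taken after thinning every nucleus to 2000 UMIs, where a count of 0 allows 3 counts, which covers counting error only. The named tests are the 12 of smallest unadjusted p over the class sums, the 3 in each larger sum and the 2 in each signalling list. Per-mouse levels are given for genes with a mean of at least 10 CPM in their highest class. The fit was tested on simulated data. DESeq2 1.42.0, its size factors, no filter, each mouse left out, 2 covariates, other clusterings and doublets kept were tried as alternatives. Gene positions are from GENCODE M21, with all 47 genes matched by identifier. Beyond the overlaps named above, Adra1d, Adrb3, Chrm1, Chrm3, Chrna10, Chrnb4, Drd5 and Htr5b overlap an annotated gene on the opposite strand. Chrm2, Chrna9, Drd3 and Htr2c overlap one on their own strand. Protein sequences were not used here. Results on 1 receptor gene and 1 gene of the signalling lists are not reported here.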

Additional observations from a re-analysis of the deposited data

Results flagged for a closer look

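Chrm1, the muscarinic receptor of pyramidal neurons, had opposite signs in Lamp5 interneurons and oligodendrocyte precursors, with every trained mouse above every control in the first and below in the second. In Lamp5 it was at 40.7, 43.2 and 41.3 CPM in the trained mice, against 39.0, 36.0 and 28.0 CPM in the control mice, a log2 fold change of 0.25 ± 0.24 (SE, n = 3 each). In oligodendrocyte precursors it was at 15.8, 12.8 and 18.5 CPM in the trained mice, against 23.1, 19.7 and 21.3 CPM in the control mice, a log2 fold change of -0.49 ± 0.38. The difference of the 2 responses was 0.78 ± 0.44 on the log2 scale and did not pass the test (edgeR's quasi-likelihood test with the mouse as a block, unadjusted p = 0.0751, adjusted p = 0.84). The pair was found among all pairs of classes after its values were seen. Of all single tests over the classes, 9.45% had groups that did not overlap, 4.88% with trained mice above and 4.57% with them below. Chrm1 was tested in 18 classes. How many of all genes have such an opposite pair was not counted, so nothing particular to Chrm1 is read from it. Slc17a7 and Gad1 were also counted in the precursor nuclei, and the part of free neuronal RNA in their Chrm1 values was not tested.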

How the results depend on the processing

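No receptor test passed the adjusted threshold over the class sums (0 of 264), and this held under DESeq2, its size factors, both covariates, resolution 0.5, doublets kept and member genes among the variable genes. It did not hold without the filter on low counts, with 1 call (Htr4 in L5/6 NP), and the count was 0 to 1 with each mouse left out, the call being Htr2a in Vip without trained mouse 4. Tests at an unadjusted p under 0.05 numbered 21 (7.95%, beside 4.09% of all tests). They numbered 43 of 775 (5.55%, beside 3.88%) without the filter, 32 (12.1%, beside 6.90%) with median UMIs as a covariate and 14 of 775 (1.81%, beside 1.04%) by DESeq2. With each mouse left out they numbered 18 to 33, beside 2.97 to 5.39% of all tests, with 33 (11.7%, beside 5.03%) without trained mouse 4. Over all nuclei and for the glutamatergic against GABAergic difference, 0 passed in each fit run, leave-one-out included. Resolution 0.5 and member genes among the variable genes do not alter the sum over all nuclei and were not run there. Of 329 alternative values of the 24 named tests, 328 kept their sign and 2 passed the threshold. The exception was Chrm3 in all non-neuronal nuclei, 0.44 against -0.20 with doublets kept, and the cause was not tested. Of the 23 genes at 10 CPM or more, 20 kept their highest class at resolution 0.5, 19 with doublets kept, 19 with member genes among the variable genes, 19 by share of thinned nuclei and 21 to 23 with each mouse left out. The genes whose highest class had another name in any of these were Chrna4, Chrna5, Chrnb1, Chrnb2, Htr2b, Htr2c, Htr5a, Adrb1, Chrm1 and Chrm3. Another name need not mean other nuclei. At resolution 0.5 there was no Glutamatergic cluster 7, and a cluster led by Cux2, Rorb, Rmst and Rspo1 was named L4/5 IT, the class to which Adrb1 and Chrm1 moved. With member genes among the variable genes, Adrb1, Chrm1 and Htr2b moved to clusters known only by number. The share of pairs seen together above the product was 56.7% at 2000 UMIs, 31.6% at 1000 and 83.1% without thinning. No paired analysis was possible because the trained and control mice share no replicate numbers. With under 100 UMIs in each group, values such as Htr1b in L6 IT or Chrm3 in oligodendrocyte precursors are limited by depth, and for 18 genes no class could be tested.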
